A study of Homo sapiens with 6 samples.

Results

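RNA-seq values of 9 genes of the NRF2 antioxidant pathway were compared between U87MG-LMO2 and U87MG-control cells. The genes were taken by symbol from a list of known pathway members, and the rule itself set no threshold on a measured value: NFE2L2 (which encodes NRF2), KEAP1, HMOX1, NQO1, GCLC, GCLM, SLC7A11, TXNRD1 and SRXN1. All 9 were found by Entrez gene ID among the 27257 genes with a count, and all 9 were among the 16092 genes that passed the filter on low counts. NQO1 rose 2.18-fold in U87MG-LMO2 cells, whereas NFE2L2 mRNA differed by a factor of 1.06 and did not pass the test. The other 7 genes did not pass the test over all 6 libraries either, and 7 of the 9 genes had their lowest U87MG-LMO2 value in the same library, replicate 3.

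U87MG is an established human glioblastoma cell line, here cultured in DMEM with 10% FBS. Both groups were infected for 24 h, U87MG-control cells with control virus (3 libraries) and U87MG-LMO2 cells with LMO2 lentivirus (3 libraries), and total RNA was sequenced by a service company. LMO2 encodes a LIM-domain adaptor protein of transcription complexes, and the study asked how the transcriptome changes when LMO2 is overexpressed from a vector, for which its methods name pLL-CMV-puro, with a CMV promoter. A single cell line and a single time point were sampled, and nothing in the labels says that the libraries of a group came from separate cultures, so p values measure the spread between these libraries.

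NRF2 is a transcription factor that is held at a low level in resting cells by KEAP1, an adaptor that presents it to a CUL3 ubiquitin ligase for degradation. Oxidants and electrophiles modify cysteines of KEAP1, NRF2 then accumulates, pairs with a small MAF protein and binds antioxidant response elements, whereas BACH1 competes with it for the same elements. Much of this control acts on the NRF2 protein and is not seen in NFE2L2 mRNA. Its targets supply glutathione (SLC7A11, GCLC, GCLM), keep thioredoxin and peroxiredoxins reduced (TXNRD1, SRXN1), break down heme (HMOX1) and reduce quinones (NQO1), and the pathway is often active in glioma and other tumour cells, in which it is known for drug resistance.

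The U87MG-control libraries held 11428432 to 13537284 expected counts, and the U87MG-LMO2 libraries 14630627 to 17892955. LMO2 (Entrez 4005) was at 0.607, 0.803 and 0.378 CPM (normalised read counts scaled to a common library size) in U87MG-control and at 333, 307 and 878 CPM in U87MG-LMO2 replicates 1 to 3. Its log2 fold change was 9.70 (SE 0.60, edgeR adjusted p = 4.13e-04), and without U87MG-LMO2 replicate 3 it was 9.04 (adjusted p = 3.31e-09). U87MG-LMO2 replicate 3 stood apart from the other libraries of its group. Its counts differed from those of replicates 1 and 2 with a chi-square per degree of freedom of 37.6 and 51.5. Between replicates 1 and 2 it was 7.63. In U87MG-control, replicate 1 differed from replicates 2 and 3 by 10.6 and 9.975, and the latter differed from each other by 2.24. Each result on the NRF2 genes is therefore also given without U87MG-LMO2 replicate 3. Of 10 glioma and astrocyte markers, VIM (5122 to 5642 FPKM), CD44, NES, CHI3L1 and SLC1A3 were present, and SOX2 did not exceed 0.09 FPKM. S100B and AQP4 were at 0 in all U87MG-control libraries, where a gene without a line was set to 0. GFAP was left out because its value in U87MG-LMO2 replicate 3 was damaged, and values of OLIG2 are not given. Of 11 markers of immune, endothelial, epithelial, neural and erythroid cells, 2 had no line in any library, and the other 9 without CD68 summed to 2.11 to 2.49 FPKM in U87MG-control and 1.98 to 2.12 FPKM in U87MG-LMO2. CD68, a lysosomal protein, was at 157 to 283 FPKM.

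To show where an antioxidant response element could lie close to the start of these genes, RefSeq promoter windows (GRCh38.p14, 250 bases before to 50 after a start) were searched on both strands for its core, TGACNNNGC. Of the 9 genes, 7 had an entry, with 10 windows in all, and HMOX1 and SLC7A11 had none. The core was found in windows of 3 of the 7 genes (GCLM, TXNRD1 and KEAP1), compared with 16.1% of the 27305 genes in the table and 13.3% of its 35116 windows. A match of this length is a description of letters and not of binding. The stretches of GCLM (chr1:93909430-93909490, minus strand), TXNRD1 (chr12:104286904-104286964, plus strand) and KEAP1 (chr19:10502768-10502851, minus strand) are printed on the strand of the gene, with the matches in capitals. In GCLM the match began 34 bases before the start, and in TXNRD1 102 bases before the second of its 2 starts. KEAP1 also had 2 starts, and its 2 matches began 54 and 31 bases before the second. The window of the other KEAP1 start held no match. The window of the other TXNRD1 start held 2 more matches, 99 and 8 bases before that start, which are not printed. The window of NQO1 held no match, and its 250 bases before the start (chr16:69726561-69726810, minus strand) are given as the promoter of the gene that rose.
GCLM: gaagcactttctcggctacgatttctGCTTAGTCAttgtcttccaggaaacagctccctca
TXNRD1: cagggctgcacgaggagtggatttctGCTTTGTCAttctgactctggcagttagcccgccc
KEAP1: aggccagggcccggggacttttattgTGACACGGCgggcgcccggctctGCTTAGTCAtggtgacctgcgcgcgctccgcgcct
NQO1: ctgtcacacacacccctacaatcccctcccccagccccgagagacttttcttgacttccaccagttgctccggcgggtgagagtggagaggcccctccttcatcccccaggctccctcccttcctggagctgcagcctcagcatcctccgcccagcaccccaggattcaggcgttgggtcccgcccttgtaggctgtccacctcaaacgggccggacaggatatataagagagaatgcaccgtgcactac

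In the same windows the AP-1 site TGACTCA, which can overlap the core because TGACTCAGC holds both, was found in none of the 7 genes and in 6.0% of all genes in the table (4.9% of its windows). The STAT site TTCNNNGAA was searched because STAT3 is the factor the study followed. It was found in GCLM alone among the 7 genes, 20 bases before the start, and in 9.4% of all genes in the table (7.7% of its windows). Among the genes in which a core was found, GCLM, TXNRD1 and KEAP1, none passed the test over all 6 libraries, and the gene that passed, NQO1, had no core in this window. Bases outside the windows were not searched, so a core farther from a start would not have been found. A missing core here therefore describes the window and not the gene, and whether NRF2 acts on NQO1 was not tested.

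The sensor and the factor itself came first. NFE2L2 (Entrez 4780) was at 77.2, 81.5 and 75.0 CPM in U87MG-control and at 79.8, 86.5 and 80.9 CPM in U87MG-LMO2. The groups overlapped, and the log2 fold change was 0.08 (95% CI -0.13 to 0.29), with an edgeR adjusted p of 0.617. The interval thus held changes from 0.916-fold to 1.22-fold. Without U87MG-LMO2 replicate 3 the log2 fold change was 0.09 (adjusted p = 0.506). KEAP1 (Entrez 9817), the cysteine-rich repressor of NRF2, was at 106, 144 and 147 CPM in U87MG-control and at 166, 159.9 and 175 CPM in U87MG-LMO2. Each U87MG-LMO2 library lay above each U87MG-control library, but the difference of 0.34 on the log2 scale (95% CI 0.03 to 0.64) did not pass the test after adjustment (edgeR adjusted p = 0.158). It was 0.30 without U87MG-LMO2 replicate 3 (adjusted p = 0.155), and with the GC-content correction it was 0.13 (adjusted p = 0.546). Without U87MG-control replicate 1, the lowest library, it was 0.20 (edgeR adjusted p = 0.323).

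NQO1 and HMOX1 had the largest log2 fold changes of the 9 genes. NQO1 (Entrez 1728), the quinone reductase that is widely used as a readout of NRF2 activity, was at 66.1, 78.9 and 81.5 CPM in U87MG-control and at 182, 180.2 and 133 CPM in U87MG-LMO2. The groups did not overlap, and U87MG-LMO2 replicate 3 was lower than the other libraries of its group. Its mean rose from 75.5 ± 8.25 CPM to 165 ± 28.0 CPM (SD, n = 3 each), and the log2 fold change was 1.13 (SE 0.15, 95% CI 0.79 to 1.46, edgeR adjusted p = 0.00650). It was 1.26 without U87MG-LMO2 replicate 3 (adjusted p = 2.36e-04). NQO1 passed the test in all 14 alternative fits, with log2 fold changes of 1.04 to 1.26 and adjusted p of 1.87e-09 to 0.0428.

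HMOX1 (Entrez 3162) encodes heme oxygenase 1, which releases iron, carbon monoxide and biliverdin from heme, and it is also a target of BACH1. It was at 138, 225 and 215 CPM in U87MG-control and at 367, 530.3 and 249 CPM in U87MG-LMO2. The groups did not overlap, yet U87MG-LMO2 replicate 3 was closer to the U87MG-control libraries than to the other U87MG-LMO2 libraries. The log2 fold change was 0.99 (SE 0.27, 95% CI 0.37 to 1.61) and the edgeR adjusted p was 0.0644, above the threshold of 0.05. Without U87MG-LMO2 replicate 3 it was 1.22 (adjusted p = 0.00497). HMOX1 also passed the test with DESeq2 (adjusted p = 0.00306) and in edgeR without a filter on low counts (adjusted p = 0.0176), and it did not in the other 11 of 14 alternatives, whose adjusted p reached 0.208. The log2 fold change was 0.80 without U87MG-control replicate 1 (edgeR adjusted p = 0.208) and 0.68 without U87MG-LMO2 replicate 2 (edgeR adjusted p = 0.109).

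**Figure D1:**
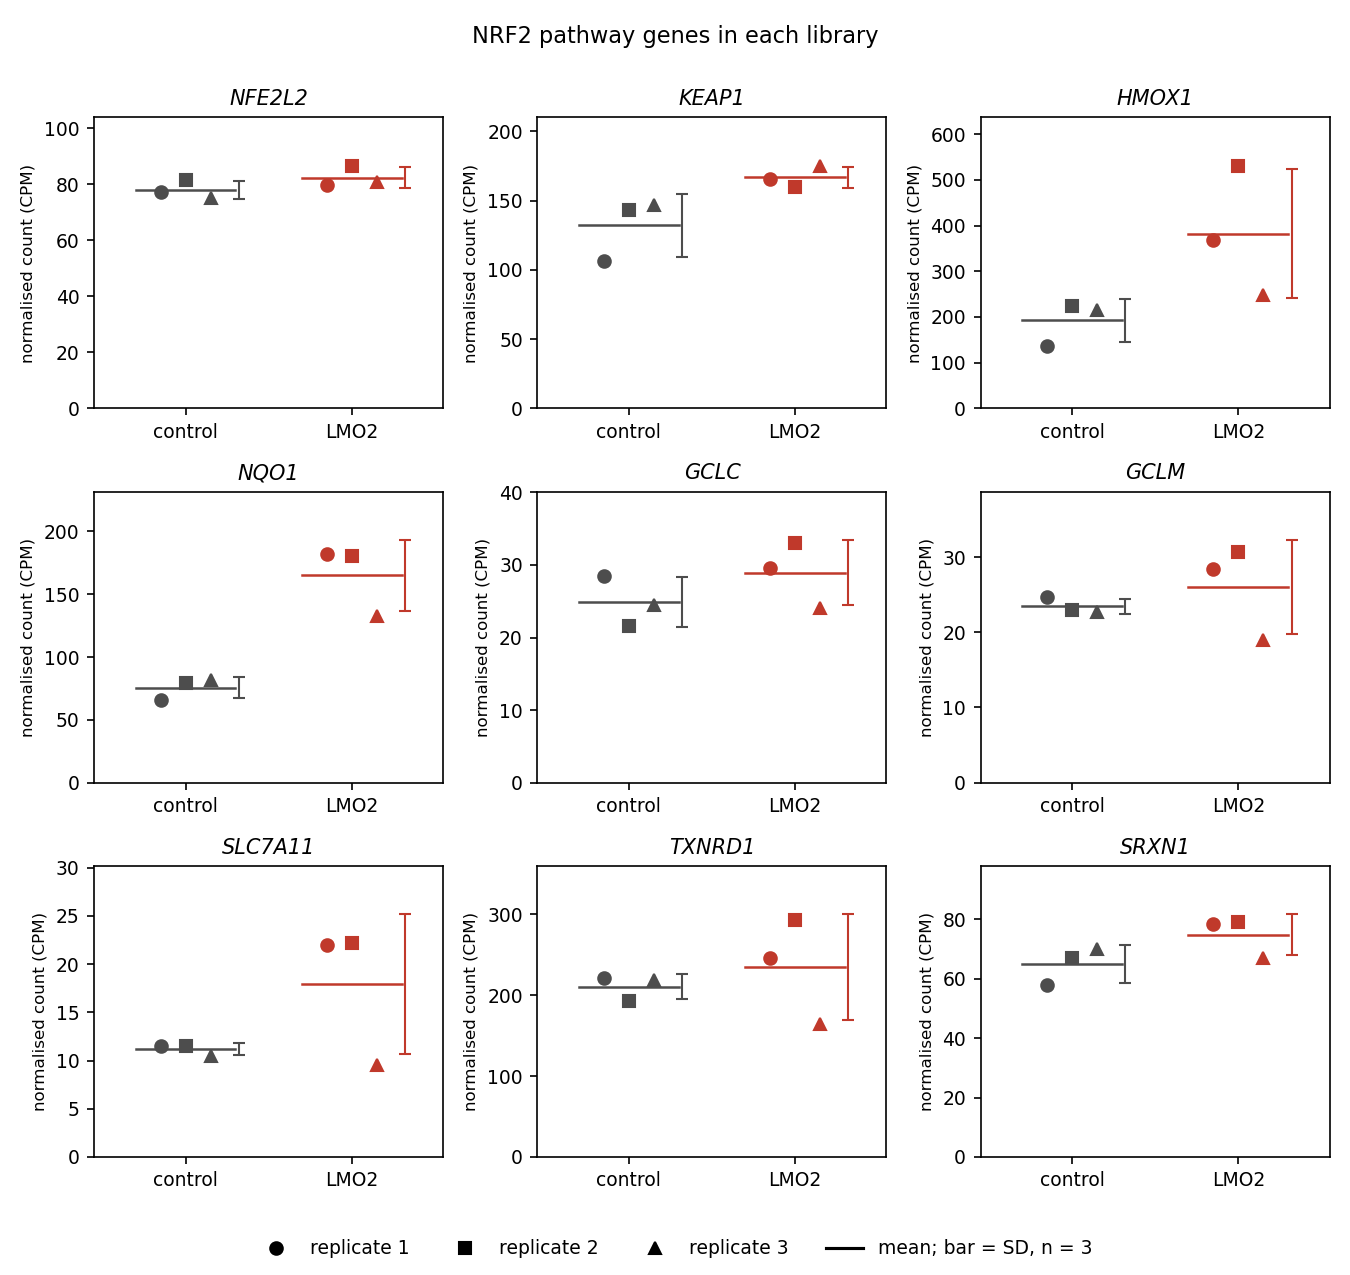
Normalised count (CPM, linear axes from 0) of each of the 9 genes in the 3 U87MG-control and 3 U87MG-LMO2 libraries, with a marker shape for each replicate number, lines at the means and bars of 1 SD. NQO1, HMOX1 and KEAP1 have groups that do not overlap, and U87MG-LMO2 replicate 3 (triangle) is the lowest U87MG-LMO2 point in 7 of the 9 panels.

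In the genes of cystine uptake and glutathione synthesis, the U87MG-LMO2 libraries differed widely among themselves. SLC7A11 (Entrez 23657), the cystine importer of system xc-, was at 11.5, 11.5 and 10.4 CPM in U87MG-control and at 22.0, 22.2 and 9.58 CPM in U87MG-LMO2. U87MG-LMO2 replicates 1 and 2 lay above all U87MG-control libraries, whereas replicate 3 lay below all of them. The log2 fold change was 0.68 (95% CI 0.02 to 1.34, edgeR adjusted p = 0.180), and without replicate 3 it was 0.98 (95% CI 0.73 to 1.24, adjusted p = 9.32e-04). On the log2(FPKM + 1) scale, which shrinks changes of low genes, it was 0.41 in limma (adjusted p = 0.353). Its partner chain SLC3A2, a gene of the list of other redox genes, was named after its values were seen. It was at 97.5, 119 and 120.2 CPM in U87MG-control and at 149, 159.7 and 124 CPM in U87MG-LMO2 (log2 fold change 0.36, adjusted p = 0.128, and 0.46 with an adjusted p of 0.0186 without replicate 3).

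GCLC (Entrez 2729), the catalytic subunit of glutamate-cysteine ligase, was at 28.5, 21.6 and 24.4 CPM in U87MG-control and at 29.6, 33.0 and 24.1 CPM in U87MG-LMO2. GCLM (Entrez 2730), the modifier subunit that raises the activity of GCLC, was at 24.6, 23.0 and 22.7 CPM in U87MG-control and at 28.4, 30.7 and 18.9 CPM in U87MG-LMO2. Both genes had overlapping groups, and both were lower in U87MG-LMO2 replicate 3 than in the other libraries of that group. The log2 fold change of GCLC was 0.22 (95% CI -0.13 to 0.57, edgeR adjusted p = 0.407) and that of GCLM was 0.15 (95% CI -0.26 to 0.55, adjusted p = 0.637). Without replicate 3 they were 0.34 (adjusted p = 0.109) and 0.33 (adjusted p = 0.0551), neither past the threshold. Without U87MG-LMO2 replicate 2 they moved the other way, to 0.11 (adjusted p = 0.681) and 0.013 (adjusted p = 0.971). GSS, the enzyme of the second step of glutathione synthesis, had a log2 fold change of -0.01 (95% CI -0.23 to 0.21, adjusted p = 0.954) and was named after its values were seen.

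The 2 genes of the thioredoxin branch were also lowest in U87MG-LMO2 replicate 3 within that group. TXNRD1 (Entrez 7296), the cytosolic thioredoxin reductase, was at 221, 193 and 218 CPM in U87MG-control and at 246, 293 and 164 CPM in U87MG-LMO2, so that the U87MG-LMO2 libraries enclosed those of U87MG-control. Its log2 fold change was 0.15 (95% CI -0.28 to 0.58, edgeR adjusted p = 0.648). It was 0.36 (adjusted p = 0.0424) without U87MG-LMO2 replicate 3 and -0.04 (adjusted p = 0.900) without U87MG-LMO2 replicate 2, so that its direction rested on a single library. SRXN1 (Entrez 140809), which repairs overoxidised peroxiredoxins, was at 57.9, 66.9 and 70.1 CPM in U87MG-control and at 78.5, 79.1 and 67.1 CPM in U87MG-LMO2. Here too the groups overlapped through replicate 3, and the log2 fold change was 0.20 (95% CI -0.06 to 0.47, adjusted p = 0.297), or 0.28 without replicate 3 (adjusted p = 0.0875).

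**Figure D2:**
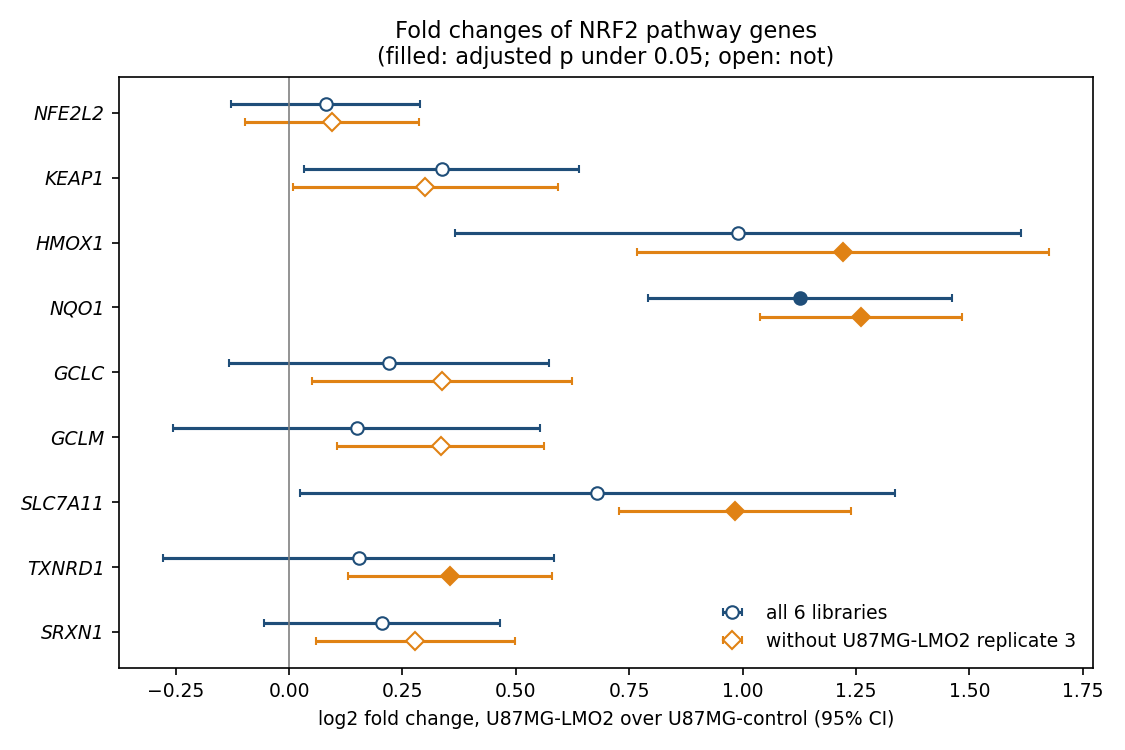
Log2 fold change (x axis, U87MG-LMO2 over U87MG-control) of each of the 9 genes with its 95% CI, over all 6 libraries (circles) and without U87MG-LMO2 replicate 3 (diamonds), filled where the edgeR adjusted p was under 0.05. NQO1 (1.13 and 1.26) is filled in both fits, and HMOX1, SLC7A11 and TXNRD1 are filled without replicate 3 alone.

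Counted together, 1 of the 9 genes was called higher and 0 were called lower by edgeR (at an unadjusted p under 0.05 the counts were 4 and 0, DESeq2 called 2 and 0, and limma on log2(FPKM + 1) called 1 and 0), where 7.48% of all genes tested were called, 4.72% higher and 2.75% lower. Of all 16092 genes tested, 4143 had an unadjusted p under 0.05 in either direction. DESeq2 called 1004 of all genes higher and 681 lower, and limma on log2(FPKM + 1) called 521 and 369. Without U87MG-LMO2 replicate 3, HMOX1, NQO1, SLC7A11 and TXNRD1 were called higher, 4 of 9, beside a background of 14.7% called, 7.97% higher and 6.72% lower. The log2 fold changes of all 9 genes were above 0, from 0.08 to 1.13 with a median of 0.22, compared with a median of -0.01 over all genes tested. In 3 of the 9 genes, 33.3%, each U87MG-LMO2 library lay above each U87MG-control library, as in 17.5% of all genes tested. U87MG-LMO2 replicate 3 was the lowest of its group in 7 of the 9 genes, 77.8%, compared with 41.6% of all genes tested. The same library held the most LMO2 mRNA (878 CPM), and a relation between LMO2 level and these genes was not tested. KEAP1 was highest in that library, and NFE2L2 was between the others. In bulk RNA, a change in every cell and a larger change in some cells cannot be told apart.

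On the FPKM scale, which divides by gene length and allows genes to be compared, HMOX1 was the most abundant of the 9 in U87MG-control (121.4 ± 30.3 FPKM, SD, n = 3), and SLC7A11 the least (1.78 ± 0.0231 FPKM). TXNRD1 (52.1 ± 3.91) and KEAP1 (51.3 ± 8.83) came next and their ranges over the libraries overlapped. NQO1 (29.2 ± 3.21) and NFE2L2 (27.5 ± 1.15) also overlapped, and SRXN1 (24.1 ± 2.38) lay below NFE2L2 without overlap. GCLM (7.45 ± 0.270) and GCLC (6.49 ± 0.890), the modifier and catalytic subunits, again overlapped. In U87MG-LMO2 the mean levels were 236.5 ± 94.4 FPKM for HMOX1, 62.5 ± 13.4 FPKM for NQO1 and 2.89 ± 1.36 FPKM for SLC7A11. NQO1 thereby moved from the range of NFE2L2 to that of KEAP1 (63.0 ± 1.57 FPKM). The ratio of NQO1 to NFE2L2 FPKM, which sets the target against the mRNA of its factor, was 0.937, 1.06 and 1.19 in U87MG-control and 2.51, 2.29 and 1.81 in U87MG-LMO2, without overlap. The ratio of GCLC to GCLM was 0.957, 0.770 and 0.881 in U87MG-control and 0.856, 0.892 and 1.04 in U87MG-LMO2, so the balance of the 2 subunits overlapped between the groups.

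**Figure D3:**
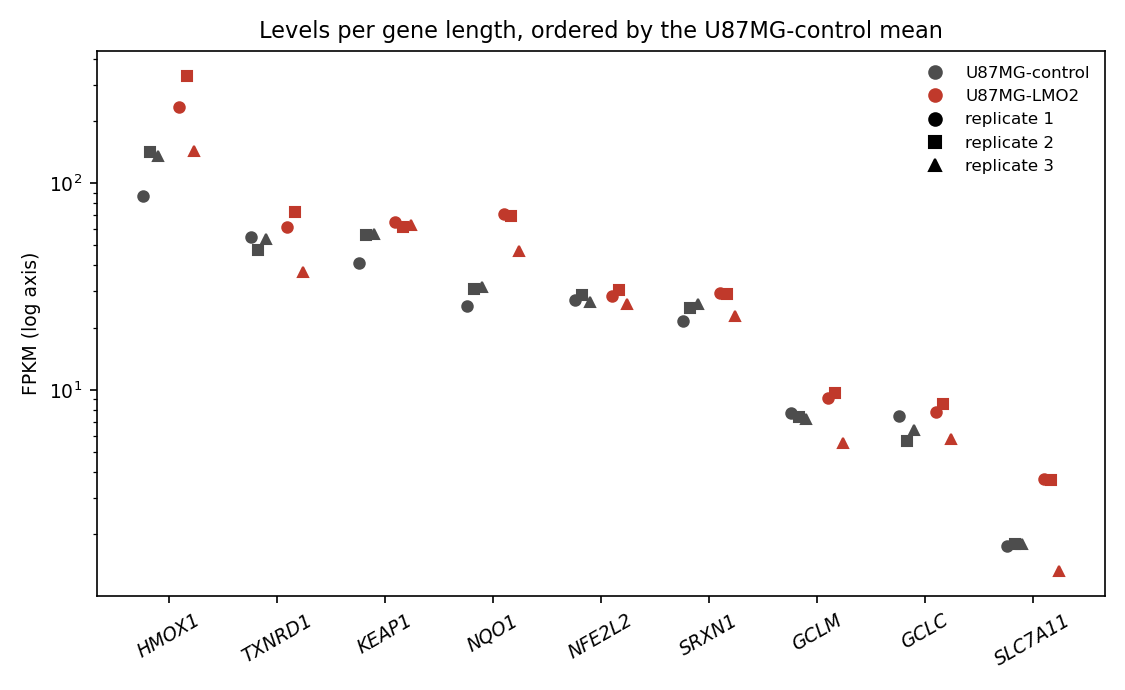
FPKM (log axis) of the 9 genes in each library, ordered by the U87MG-control mean, with a colour for each group and a marker shape for each replicate number. HMOX1 is the highest (121.4 FPKM in U87MG-control) and SLC7A11 the lowest (1.78 FPKM), and the U87MG-LMO2 points of NQO1 lie above all its U87MG-control points.

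The change of NQO1 was next compared with further known NRF2 targets, from a list of 48 genes, of which 43 were tested, 4 were removed by the filter on low counts and 1 had no line in any library. Of the 43, edgeR called 5 higher and 1 lower, with a median log2 fold change of 0.17, where 4.72% of all genes tested were called higher and 2.75% lower. The 5 were ABCC3 (2.27, adjusted p = 0.0103), PANX2 (0.99, adjusted p = 0.0115), TRIM16L (0.85, adjusted p = 0.0108), EPHX1 (0.71, adjusted p = 0.0143) and FTL (0.45, adjusted p = 0.0443). ABCC3, an efflux pump for glutathione and glucuronide conjugates, was at 12.9, 11.0 and 11.7 CPM in U87MG-control and at 41.2, 37.6 and 92.2 CPM in U87MG-LMO2. The rise of ABCC3 was known from earlier results of these data, so its direction here is not independent evidence. EPHX1, the microsomal epoxide hydrolase, was at 40.2, 51.6 and 44.6 CPM in U87MG-control and at 78.6, 68.4 and 75.7 CPM in U87MG-LMO2.

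FTL, the light chain of the iron store ferritin, was at 2026, 1925 and 1642 CPM in U87MG-control and at 2365, 2610.5 and 2674 CPM in U87MG-LMO2. PANX2, a channel protein, was at 5.07 to 6.07 CPM in U87MG-control and at 9.94 to 11.7 CPM in U87MG-LMO2, and TRIM16L was at 20.6 to 24.2 and at 36.0 to 44.0 CPM. None of these genes had overlapping groups, which their choice by adjusted p favours. Of the 43 genes, 14 (32.6%) lay higher without overlap and 5 (11.6%) lower, compared with 17.5% and 16.6% of all genes tested. TRIM16L shares sequence with TRIM16, and FTL with its pseudogenes, so that the split of reads between them is uncertain. IDH1, the cytosolic isocitrate dehydrogenase that makes NADPH, fell by 0.84 on the log2 scale (adjusted p = 0.0443), from 128, 104 and 109 CPM to 57.0, 47.4 and 86.0 CPM. Without U87MG-LMO2 replicate 3, 9 of the 43 genes were called higher and 4 lower, beside 7.97% and 6.72% of all genes tested in that fit. ABCC3 lost its call without any 1 of the U87MG-control libraries (adjusted p of 0.0536 to 0.0602) and FTL and IDH1 without any library other than U87MG-LMO2 replicate 3 (0.0801 to 0.191 and 0.0697 to 0.166). FTL also lost its call with the replicate block (0.0952), both limma fits (up to 0.0839) and the GC-content correction (0.0987), keeping it in 5 of 14 alternatives, and IDH1 with the GC-content correction (0.132). TRIM16L and EPHX1 lost it without U87MG-control replicate 1 or 3 or U87MG-LMO2 replicate 1 (up to 0.0600 and 0.0819), and PANX2 without U87MG-control replicate 2 or 3 (up to 0.0737).

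In these further targets, U87MG-LMO2 replicate 3 was the highest of its group in 28 of 43 genes, 65.1%, and the lowest in 12, 27.9%, compared with 40.2% and 41.6% of all genes tested. It was also the highest in 61.9% of the tested NRF2 regulators, 53.8% of other redox genes and 68.8% of other stress genes, the lists described below. The pattern was thus not particular to NRF2 targets. Among the 9 genes replicate 3 was highest in 1 and lowest in 7. The genes with the widest spread are given here, chosen after their values were seen. AKR1B1, an aldo-keto reductase that reduces aldehydes and sugars, was at 685 to 873 CPM in U87MG-control and at 1433, 1129 and 4891 CPM in U87MG-LMO2. AKR1C1, of the same superfamily, was at 78.4 to 108 CPM and at 125, 80.6 and 251 CPM, but near-identical AKR1C genes make this value uncertain. The ferritin heavy chain FTH1 was at 7810.2 to 8029 CPM and at 8620.2, 8492 and 12746 CPM. Neither AKR1B1 (log2 fold change 1.69, edgeR adjusted p = 0.0702) nor FTH1 (0.33, adjusted p = 0.219) passed the test, although AKR1B1 did without replicate 3 (0.73, adjusted p = 0.00489). In the library with the highest values of AKR1B1 and FTH1, SLC7A11, GCLM and TXNRD1 thus had their lowest values of all 6 libraries.

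Regulators and partners of NRF2 formed a list of 22 genes, of which 21 were tested. edgeR called 3 higher and 0 lower, with a median log2 fold change of 0.00, where 4.72% and 2.75% of all genes tested were called. At an unadjusted p under 0.05 the counts were 6 higher and 3 lower, DESeq2 called 5 and 0, and limma on log2(FPKM + 1) called 2 and 0. Of all 16092 genes tested, 4143 had such an unadjusted p in either direction. For all genes DESeq2 called 1004 and 681, and limma 521 and 369. RXRA, a nuclear receptor that can bind NRF2 and reduce its activity, was at 34.6, 43.1 and 44.1 CPM in U87MG-control and at 92.0, 88.5 and 80.3 CPM in U87MG-LMO2 (log2 fold change 1.10, SE 0.12, adjusted p = 0.00360). MAFK and MAFG, small MAF proteins with which NRF2 or BACH1 pairs on DNA, rose as well. MAFK was at 23.3, 21.5 and 23.0 CPM in U87MG-control and at 34.6, 36.3 and 40.4 CPM in U87MG-LMO2 (0.72, adjusted p = 0.0114), and MAFG was at 65.2, 68.4 and 68.3 CPM and at 103, 94.0 and 88.5 CPM (0.50, adjusted p = 0.0229). All 3 genes had groups that did not overlap, replicate 3 included, which their choice by adjusted p favours. Of the 21 tested regulators, 5 (23.8%) lay higher without overlap and 7 (33.3%) lower, compared with 17.5% and 16.6% of all genes tested. RXRA passed the test in all 14 alternatives, MAFK in 11 and MAFG in 6. MAFK lost its call without any 1 of the U87MG-control libraries (adjusted p of 0.0553 to 0.0719), and its log2 fold change was 0.45 with the GC-content correction. MAFG lost its call without any of these or without U87MG-LMO2 replicate 1 (adjusted p of 0.0877 to 0.106), and also with the replicate block (0.0675), the GC-content correction (0.0679) and both limma fits (up to 0.0635).

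The following were named after their values were seen. BACH1, the repressor at antioxidant response elements, was at 28.8, 23.4 and 21.5 CPM in U87MG-control and at 16.1, 20.0 and 18.4 CPM in U87MG-LMO2. The groups did not overlap, but the log2 fold change of -0.43 (95% CI -0.77 to -0.09) did not pass the test (edgeR adjusted p = 0.112). The third small MAF gene, MAFF, overlapped between the groups (13.3 to 19.4 and 13.0 to 17.5 CPM, log2 fold change -0.01, adjusted p = 0.980). CUL3, the scaffold of the ligase that KEAP1 serves, had a log2 fold change of -0.17 (95% CI -0.38 to 0.04, adjusted p = 0.277). SQSTM1, which encodes p62, a protein that can sequester KEAP1, was at 639.8, 745 and 725 CPM in U87MG-control and at 841, 719 and 1155 CPM in U87MG-LMO2 (0.36, adjusted p = 0.213).

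**Figure D4:**
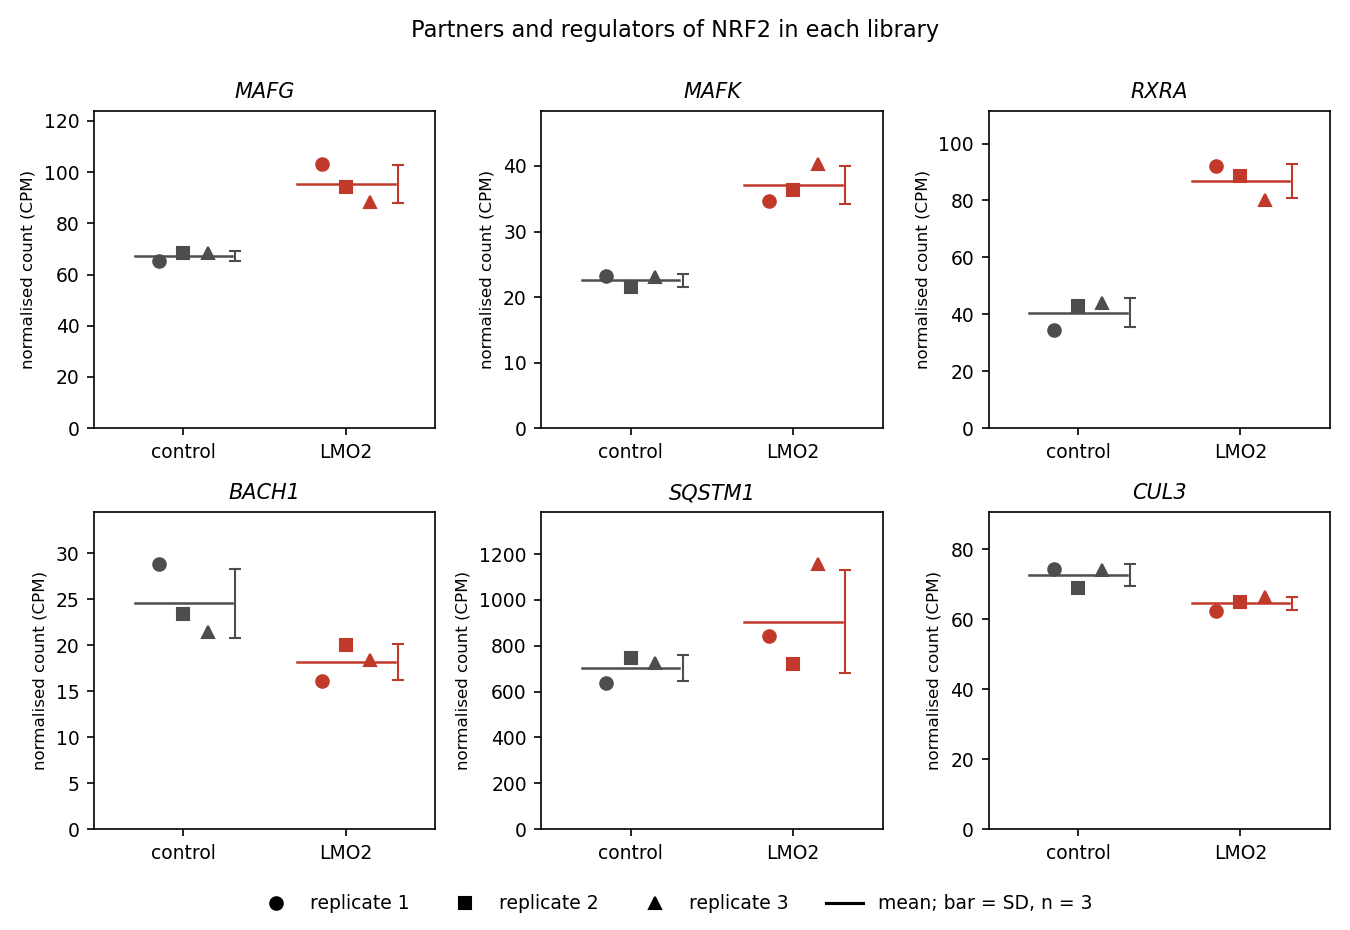
Normalised count (CPM, linear axes from 0) of the partners MAFG, MAFK and RXRA and of BACH1, SQSTM1 and CUL3 in each library, with lines at the means and bars of 1 SD (n = 3). MAFG, MAFK and RXRA are higher in all 3 U87MG-LMO2 libraries than in any U87MG-control library, and BACH1 and CUL3 are lower, with adjusted p of 0.112 and 0.277.

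Redox genes that are not classed here as NRF2 targets gave a comparison on either side. Of 43 listed and 39 tested, edgeR called 0 higher and 1 lower, with a median log2 fold change of 0.08, where 4.72% and 2.75% of all genes tested were called. At an unadjusted p under 0.05 the counts were 6 higher and 6 lower, DESeq2 called 0 and 4, limma on log2(FPKM + 1) called 0 and 2, and edgeR without U87MG-LMO2 replicate 3 called 2 and 5. Of all 16092 genes tested, 4143 had such an unadjusted p in either direction. For all genes DESeq2 called 1004 and 681, and limma 521 and 369. Without replicate 3, edgeR called 7.97% of all genes higher and 6.72% lower. The gene called lower was SOD1, the cytosolic superoxide dismutase, at 215, 198 and 218 CPM in U87MG-control and at 158, 164 and 155 CPM in U87MG-LMO2 (log2 fold change -0.41, adjusted p = 0.0361). SOD1 lost its call without any library other than U87MG-LMO2 replicate 3 (adjusted p of 0.0565 to 0.167), and with the replicate block (0.103). Its mitochondrial counterpart SOD2, named after its values were seen, was at 121 to 223 CPM in U87MG-control and at 204, 137 and 1119.8 CPM in U87MG-LMO2, and did not pass the test (1.63, adjusted p = 0.183, or 0.12 with an adjusted p of 0.799 without replicate 3).

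Genes of other stress pathways, which can share targets with NRF2, were also counted. Of 17 listed and 16 tested, edgeR called 0 higher and 4 lower, with a median log2 fold change of -0.12, where 4.72% and 2.75% of all genes tested were called. At an unadjusted p under 0.05 the counts were 2 higher and 5 lower, DESeq2 called 1 and 4, limma on log2(FPKM + 1) called 0 and 4, and edgeR without U87MG-LMO2 replicate 3 called 1 and 6. Of all 16092 genes tested, 4143 had such an unadjusted p in either direction. For all genes DESeq2 called 1004 and 681, and limma 521 and 369. Without replicate 3, edgeR called 7.97% of all genes higher and 6.72% lower. All 4 genes called lower over the 6 libraries belonged to the heat shock response: HSPA1A (-2.77, adjusted p = 0.0196), HSPA1B (-1.69, adjusted p = 0.00413), HSPH1 (-1.06, adjusted p = 0.0136) and DNAJB1 (-0.96, adjusted p = 0.00346). HSPA1B, an inducible HSP70 gene, was at 258, 384 and 387 CPM in U87MG-control and at 103, 86.8 and 129 CPM in U87MG-LMO2. DNAJB1, an HSP40 cochaperone, was at 331, 347 and 327 CPM and at 192, 165 and 158 CPM. HSPH1, an HSP110 chaperone, was at 139.8, 175 and 179 CPM and at 91.7, 86.4 and 59.3 CPM, and HSPA1A at 1.91 to 6.28 CPM and at 0.366 to 0.904 CPM. HSPA1A and HSPA1B are near-identical copies, so the split of reads between them is uncertain. HSPA1B and DNAJB1 kept their calls in all 14 alternatives, whereas HSPH1 lost its call without U87MG-control replicate 2 or 3 (adjusted p up to 0.0719) and HSPA1A without these or U87MG-LMO2 replicate 1 (up to 0.0842). ATF4, which also controls SLC7A11, was named after its values were seen and had a log2 fold change of -0.01 (95% CI -0.32 to 0.30, adjusted p = 0.978).

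**Figure D5:**
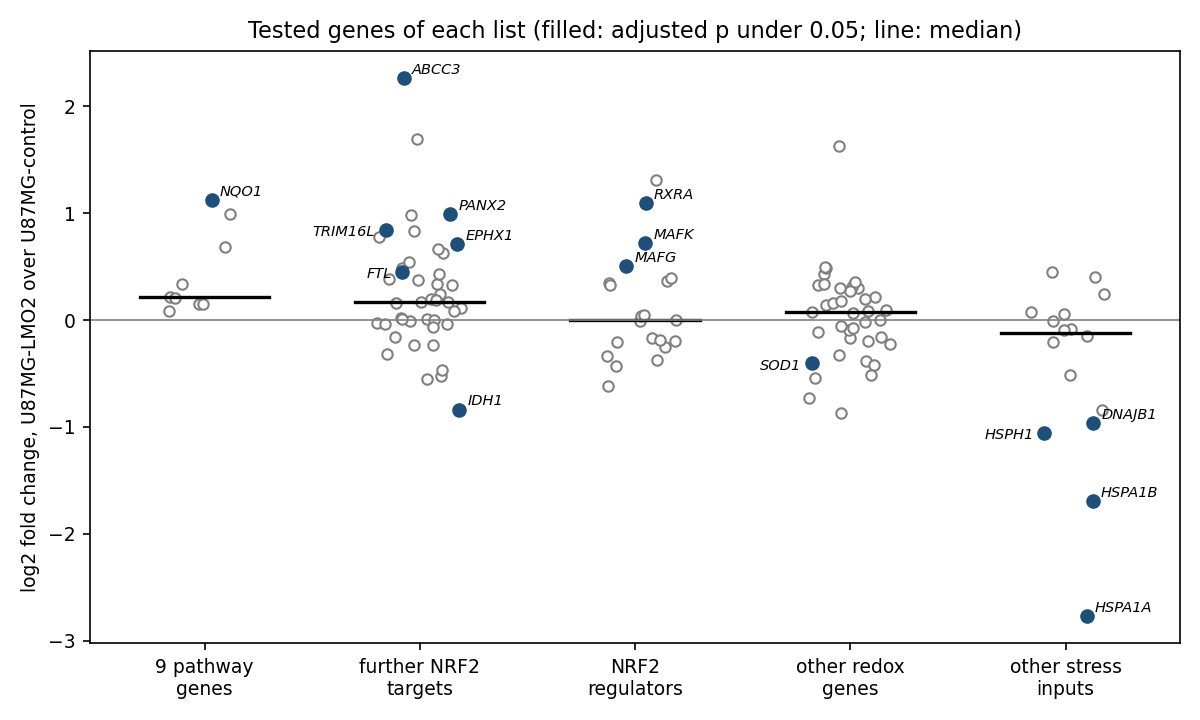
Log2 fold change (U87MG-LMO2 over U87MG-control) of each tested gene in the 9 NRF2 pathway genes, further NRF2 targets, NRF2 regulators, other redox genes and other stress genes, filled and named where the edgeR adjusted p was under 0.05, with a line at each median and random sideways spread of the points. The medians lie between -0.12 and 0.22, and the 4 filled points among the other stress genes are heat shock genes below 0.

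Finally, the genes whose profile was most like that of NQO1 were sought among 9648 genes with a mean of at least 10 CPM, by the root mean square difference of log2 CPM centred on each gene over the 6 libraries. They were CXXC5 (0.0866), PLK2 (0.0909), RXRA (0.0963), NEURL1B (0.0980) and BEGAIN (0.101). CXXC5, a zinc finger protein, was at 40.6, 53.2 and 51.8 CPM in U87MG-control and at 128, 114 and 96.0 CPM in U87MG-LMO2. All 5 had U87MG-LMO2 replicate 3 as the lowest library of its group, as NQO1 had. The choice by likeness over the same 6 libraries favours this, so it is no separate finding. HMOX1 differed from NQO1 by 0.256. Of all 16092 genes tested, 190 had a smaller difference, NQO1 itself included. SLC7A11 differed from NQO1 by 0.388. The other genes of the pathway were farther away, at 0.429 for KEAP1 to 0.546 for NFE2L2. These differences describe 6 libraries in which the group contrast is shared by many genes, and no test was made on them.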

How the data were processed

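The 3 U87MG-control and 3 U87MG-LMO2 libraries were grouped by their labels. The authors deposited, for each library, the expected counts per gene, which are estimates without normalization. Beside them the authors deposited FPKM values, which adjust for gene length and library size. The submitters' processing notes name BWA, Bowtie2 and build GRCh38.p12. The counting program and the use of strand are not given in the sources used here. The authors' comparison table holds group means, log2 ratios and probabilities, and its means alone were used, as a check: 27125 of 27259 genes matched both group means within 0.001 FPKM. The other 134, of which 129 had no line in the damaged table of U87MG-LMO2 replicate 3, were left out. They include none of the 9 genes, and SESN2 and GFAP of the lists.

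Counts were rounded and tested 2-sided with edgeR 4.0.16 (filterByExpr, TMM, glmQLFit, glmQLFTest, no block) in R 4.3.3, with Benjamini-Hochberg adjustment over 16092 genes and a threshold of 0.05. CPM used TMM-adjusted library sizes, and mean ± SD is over 3 libraries. SE is the log2 fold change divided by the root of F. Libraries held 11428432 to 17892955 counts. Of the 9 genes SLC7A11 had the fewest, with 133 to 158 counts in the U87MG-control libraries, so its counting error was not small. Intervals for folds rest on the spread between libraries, which edgeR moderates across all genes tested. The 14 alternatives were limma 3.58.1 on FPKM values (log2 after adding 1, or 0.1), DESeq2 1.42.0, a replicate block, upper-quartile scaling, no filter, a minimum of 10 counts per library, a GC-content correction (lowess span 0.3, GC known for 89.9% of tested genes) and leaving out each library.

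Symbols (89.6% matched) and promoter windows came from RefSeq, GRCh38.p14. The genes and lists were chosen with earlier results of these data known. Named were LMO2, the 9 genes, list genes with an adjusted p under 0.05, the 5 profiles most like that of the gene with the smallest p, and others, marked where they were picked with values in view.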

Additional observations from a re-analysis of the deposited data

How the results depend on the processing

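The call of NQO1 and the direction of 8 of the 9 genes held in all 14 alternatives. TXNRD1 reversed to -0.040 on the log2 scale (adjusted p = 0.900) without U87MG-LMO2 replicate 2, and ranged from there to 0.36 (adjusted p = 0.0424, without U87MG-LMO2 replicate 3) when a library was left out. The number of the 9 genes called higher was 2 with DESeq2 and 2 without a filter, and 1 to 4 when each of the 6 libraries was omitted in turn, with 0 called lower in each fit.

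Of all genes, 387 were called higher and 189 lower with the replicate block, and DESeq2 called 1004 higher and 681 lower. Over the fits without 1 library the counts were 102 to 1307 higher and 42 to 1102 lower. The numbers did not pair the libraries (correlations of deviations of -0.117, -0.0034 and -0.041 for the 3 same-numbered pairs), and the block left the count of the 9 genes at 1. Among further NRF2 targets, 0 to 9 were higher and 0 to 4 lower without 1 library, and 0 lower with the GC-content correction. Among regulators, 5 were higher with DESeq2, 1 was lower with the GC-content correction, and 1 to 4 were higher and 0 to 1 lower without 1 library. Among other redox genes, 1 was higher with the GC-content correction, and the number lower was 4 with DESeq2, 3 with the GC-content correction, 0 with the block, and 2 each with upper-quartile normalization, no filter, the filter at 10 counts and both limma fits. Without 1 library it was 0 to 5, and 0 to 2 were higher. Among other stress genes, DESeq2 called 1 higher, and 0 to 1 were higher and 2 to 6 lower without 1 library. For LMO2 itself, the filter at 10 counts gave no value. The cause of these shifts was not tested. With 3 libraries a group, adjusted p near 0.05 changed sides with 1 library.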
